A study of Mus musculus with 24 samples.

Results

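The comparison described here is the net change in gene expression between the first and the last sorted stage of eosinophil maturation in mice given IL-33. It takes the 3 stage IV and the 3 stage I libraries labelled as IL-33-induced eosinophilia, 6 of the 24 libraries of the series, and covers all 24982 gene symbols in the files. All mice were wild type C57BL6, and their age is not given in the sources used here. The IL-33 groups came from mice injected intraperitoneally each day for 7 days with 400 ng of recombinant murine IL-33, and the steady state groups, stages I and IV of which serve as a reference, came from mice of the same strain without IL-33. For every library, bone marrow cells of 3 mice were pooled, cells bearing CD45R, CD90.2, Ly6G or NK1.1 were taken out with magnetic beads, and the stages were sorted by flow cytometry on 7 surface proteins (CD29, CD55, CD117, CD200R3, F4/80, Siglec-F and Pir-A/B). The labels' protocols give a sort purity of at least 95%. RNA was amplified with the SMART-Seq v4 kit and made into libraries with Nextera XT, which does not mark the strand. The design text calls the 3 libraries of a group biological triplicates. Each is a pool, so the spread reported below is between pools of mice and not between single animals.

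Eosinophils are granulocytes that arise in the bone marrow from a progenitor carrying the IL-5 receptor. While they still divide they make cationic granule proteins in the endoplasmic reticulum, and later they leave the cell cycle, condense the nucleus and acquire the receptors with which the mature cell senses chemokines, lipid mediators and cytokines. IL-33 is an alarmin cytokine of the IL-1 family. It acts through the receptor ST2, encoded by Il1rl1, and expands eosinophils largely by inducing IL-5 in innate lymphoid cells.

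The 6 libraries held between 10363008 and 13491834 gene counts. Reads that fell in no annotated feature made up 9.47% to 11.1% of counted reads in stage I and 11.8% to 16.6% in stage IV, so the ranges did not overlap. The part of this share in the differences below was not tested directly. With it as a covariate in the fit, 4823 genes were called in place of 5616. Stage IV library 1 stood apart from the other 2 stage IV libraries. On the second principal component of the IL-33 libraries, with 9.65% of the variance, it lay at 77.8 and the others at -32.2 and -29.8. Without it, 4911 genes were called, 2406 higher and 2505 lower. Levels are given as CPM, counts divided by the library's total and multiplied to a common scale, with totals adjusted by edgeR's trimmed mean of M values (TMM), in the order of libraries 1, 2 and 3. They are not divided by gene length, so they are compared between libraries and not between genes. Since these are bulk libraries, fewer cells of a type and less RNA per cell cannot be told apart. Levels of the eosinophil genes Prg2 and Siglecf follow, and those of Siglecf are not independent of the sort. Other eosinophil genes are given below, and not all were high, with Ccr3 at 3.4 to 6.89 CPM in stage I. Prg2, which encodes major basic protein, had 9300.1, 12801 and 12237 CPM in stage I and 10102, 11902 and 9495 CPM in stage IV. Siglecf, which encodes the sorted surface lectin Siglec-F, had 286, 196 and 332 CPM in stage I and 693, 805 and 631 CPM in stage IV.

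Of the 12743 genes with enough counts to test, 5616 changed between stages I and IV at an adjusted p under 0.05 (edgeR's quasi-likelihood test, Benjamini-Hochberg adjustment), which is 44.1% of those tested. The 2697 genes that were higher in stage IV made up 21.2% of genes tested and the 2919 that were lower made up 22.9%. The median log2 fold change of all genes tested was -0.03. Of the called genes, 48.0% were higher and 52.0% lower. Scaling by library totals in place of TMM moved the median of all genes to -0.30 and the split to 36.9% higher and 63.1% lower. The directions below are therefore relative to the TMM scale, and the direction of a small change depends on it. In 59.3% of tested genes the 3 stage IV libraries did not overlap with the 3 of stage I, with stage IV above in 28.7% and below in 30.7%. Lists differed in where along the course they moved. The median difference from stage I of the S phase genes, in log2(CPM + 1), was 0.09 in stage II, -0.39 in stage III and -3.34 in stage IV, and that of the inhibitory and paired receptor genes was 0.45, 1.05 and 2.58.

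The genes of the eosinophil granule proteins stayed abundant to the last stage. Of the 7 tested, 0 rose, 2 fell and 5 were not called, with a median log2 fold change of -0.12. Epx encodes eosinophil peroxidase, the heme enzyme of the specific granule (chr11:87864000-87875536, minus strand; GRCm38, GENCODE M21, a protein-coding gene, as are the others whose position is given). Its level was 15008, 14137 and 20587 CPM in the stage I libraries and 5997, 6901 and 4504 CPM in those of stage IV. All 3 stage IV libraries lay below all 3 of stage I, and the log2 fold change was -1.51 ± 0.26 (SE, n = 3 against 3; edgeR adjusted p = 5.9e-05). Prg3, a homologue of major basic protein, was at 3085, 4837 and 4381 CPM in stage I and 1616, 2295 and 1721 CPM in stage IV, again without overlap. It fell by 1.13 ± 0.34 on the log2 scale (SE; edgeR adjusted p = 0.0099), and this call was lost when the test required a change of more than 1.5-fold. Prg2 (chr2:84980461-84983632, plus strand), whose levels are given above, overlapped between the stages and had a log2 fold change of -0.12 ± 0.27. The ribonuclease genes Ear1 and Ear6 also overlapped. Ear1 had 1630.2, 2551 and 2186 CPM in stage I and 1981, 2626 and 2004 CPM in stage IV, and Ear6 had 211, 331 and 299 CPM and 245, 289 and 275 CPM. Reads may be divided among the near-identical copies of the Ear family, so values for single members are uncertain.

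**Figure D1:**
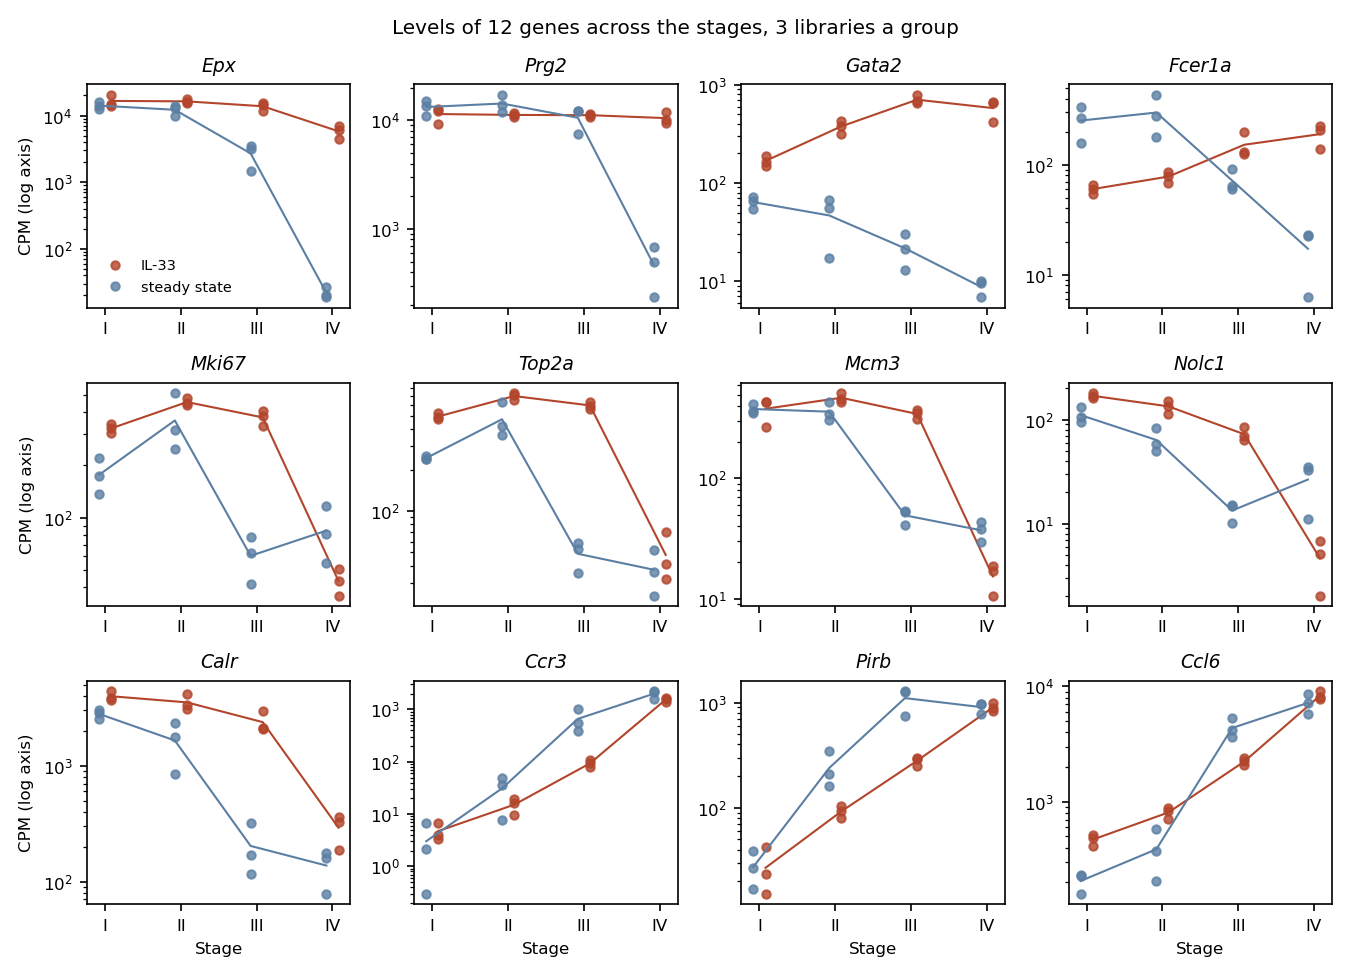
Levels of selected genes in stages I to IV, in CPM on a log axis, with 1 point for each library and a line through the group means, for IL-33 and steady state. Under IL-33, Epx is still at 4504 to 6901 CPM in stage IV, whereas the steady state stage IV libraries sit between 18.6 and 26.5 CPM.

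In steady state the same genes did not stay abundant. Epx went from 13883, 15953 and 12458 CPM in steady state stage I to 20.2, 18.6 and 26.5 CPM in steady state stage IV, and all 7 granule genes fell there, with a median of -4.69. The test of the difference between the IL-33 and the steady state change called 416 genes, 3.26% of those tested, and 6 of the 7 granule genes were among them, all with the higher value under IL-33. The call for Ear2, chosen after its values were seen, was lost in 6 of the 12 leave-one-out fits. For Epx the difference was 7.83 ± 0.41 on the log2 scale (SE; edgeR adjusted p = 2e-11). It was 5.40 ± 0.51 for Prg3, 4.69 ± 0.40 for Prg2 and 4.64 ± 0.46 for Ear6, each with an adjusted p under 0.05. Granule protein genes together made up 3.62% ± 0.501 (SD, n = 3) of all gene counts in stage I under IL-33 and 1.8% ± 0.201 in stage IV. An exact permutation test of this share gave p = 0.1, the smallest value that 3 against 3 libraries allow.

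Genes of cell division fell almost without exception. In the list for S phase and DNA replication, 37 of 38 tested genes were lower in stage IV and 1 was higher, with a median log2 fold change of -3.54. In the list for G2 and mitosis, 31 of 32 were lower and none was higher, with a median of -3.41. Mcm3 and Mcm5 encode subunits of the MCM helicase that unwinds DNA at replication forks. Mcm3 (chr1:20802968-20820312, minus strand) was at 436, 270.5 and 435 CPM in stage I and 16.8, 18.5 and 10.5 CPM in stage IV. The groups were far apart, and Mcm3 fell by 4.64 ± 0.26 on the log2 scale (SE; edgeR adjusted p = 5.1e-11). Prim1, which encodes the small primase subunit, was tightly grouped at 99.3, 101 and 99.5 CPM and then 5.02, 6.61 and 5.46 CPM, a log2 fold change of -4.13. Mki67, which encodes the proliferation antigen Ki-67 (chr7:135689784-135716361, minus strand), went from 303, 344 and 323 CPM to 51.2, 43.4 and 35.8 CPM. It fell by 2.89 ± 0.30 on the log2 scale (SE; edgeR adjusted p = 7.2e-08), so the last stage still held a measurable level in each library. The mitotic cyclin gene Ccnb2 (chr9:70407692-70421547, minus strand) was at 276, 333 and 301 CPM and then 45.1, 44.8 and 36.9 CPM. Top2a, which encodes topoisomerase II, had a log2 fold change of -3.36 ± 0.30, and Birc5, which encodes survivin, had -3.20 ± 0.28. The exceptions were E2f2, the gene of an S phase transcription factor, and Kif23, the gene of a kinesin of the dividing cell's midbody. E2f2, chosen after its values were seen, was at 63.4, 36.3 and 35.4 CPM in stage I and 126, 183 and 153 CPM in stage IV and rose by 1.77 ± 0.33 (SE; edgeR adjusted p = 0.00013). Kif23 had 146, 108 and 137 CPM in stage I and 154, 163 and 187 CPM in stage IV and was not called.

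The start regions of these genes are shown because their lists moved together, and they hold short sequences known from other cell cycle genes. Each is the 300 bases from 250 before to 50 after the gene's first listed start, from RefSeq on GRCm38.p6, 5′ to 3′ on the gene's strand. Capitals mark CCAAT and TTTGAA in Ccnb2 (chr9:70421505-70421804, minus strand), and TTGGCGC or TTCCCGC in Mcm3 (chr1:20820263-20820562, minus strand) and Mcm5 (chr8:75109259-75109558, plus strand), on either strand.
Ccnb2: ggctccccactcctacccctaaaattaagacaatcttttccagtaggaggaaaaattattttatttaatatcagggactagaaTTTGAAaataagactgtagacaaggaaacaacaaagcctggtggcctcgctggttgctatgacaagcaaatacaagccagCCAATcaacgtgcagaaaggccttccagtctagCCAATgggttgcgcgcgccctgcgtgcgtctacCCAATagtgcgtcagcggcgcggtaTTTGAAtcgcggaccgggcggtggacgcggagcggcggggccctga
Mcm3: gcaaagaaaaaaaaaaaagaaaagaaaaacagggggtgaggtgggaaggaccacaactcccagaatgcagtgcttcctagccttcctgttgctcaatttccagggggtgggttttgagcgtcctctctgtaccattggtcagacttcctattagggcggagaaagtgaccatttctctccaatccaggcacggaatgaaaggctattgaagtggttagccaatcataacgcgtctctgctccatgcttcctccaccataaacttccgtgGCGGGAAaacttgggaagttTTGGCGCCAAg
Mcm5: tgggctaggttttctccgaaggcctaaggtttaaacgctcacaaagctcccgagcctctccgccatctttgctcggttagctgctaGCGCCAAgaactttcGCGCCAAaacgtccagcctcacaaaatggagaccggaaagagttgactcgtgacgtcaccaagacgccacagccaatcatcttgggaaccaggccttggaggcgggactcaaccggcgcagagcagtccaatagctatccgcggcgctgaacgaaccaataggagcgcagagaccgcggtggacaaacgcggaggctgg
CCAAT, the box bound by the factor NF-Y, was found on either strand in 21 of the 26 G2 and mitosis promoters with an entry (80.8%), against 39.5% of the promoters of tested genes and 37.9% of all 27025 promoters in the table. TTTGAA, the letters of the cell cycle homology region, was found in 19 of those 26 (73.1%), against 12.2% of tested genes and 18.1% of all. TTGGCGC or TTCCCGC, 2 forms of the E2F site, was found in 16 of 31 S phase promoters (51.6%), against 12.4% of tested genes and 6.93% of all. The reverse complement of TTGGCGC ends in the first letters of CCAAT, so 1 stretch can hold both. For the granule genes the GATA-type letters AGATAA or TGATAA were found in 1 of 6 promoters, that of Prg3, against 10.6% of tested genes and 19% of all. These matches describe letters in a window and do not show binding.

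Around the G1 phase the direction was mixed. Of 22 tested genes for G1 cyclins, cyclin-dependent kinases and their inhibitors, 12 rose and 4 fell. Those that fell were Ccnd2, Cdk4, Rbl1 and Myc, and under library totals 9 were higher and 7 lower. Myc, which encodes a transcription factor that drives growth (chr15:61985391-61990374, plus strand), was at 290.4, 145 and 210.4 CPM in stage I and 12.6, 4.02 and 4.27 CPM in stage IV. Its log2 fold change was -4.96 ± 0.85 (SE; edgeR adjusted p = 5.6e-05). Mxd1, which encodes a partner of Max that represses Myc targets, moved the other way, from 88.3, 37.9 and 53.6 CPM to 1279.7, 1234 and 1004 CPM, a rise of 4.29 ± 0.48. Cdk4, the kinase gene of the D-type cyclins, fell by 2.98 on the log2 scale, and Cdkn1b, which encodes the inhibitor p27, rose by 2.69.

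The machinery that builds ribosomes also fell. In the ribosome biogenesis list 27 of 30 tested genes were lower, none was higher, and the median was -2.50. Polr1c, Ubtf and Ddx21 were not called. Nolc1, which encodes a nucleolar chaperone (chr19:46075863-46085530, plus strand), was at 168, 159.6 and 181 CPM and then 2.03, 6.79 and 5.09 CPM, and fell by 5.18 ± 0.43 on the log2 scale (SE; edgeR adjusted p = 4.1e-09). Nop56, the gene of a core protein of the box C/D particles that methylate ribosomal RNA, fell by 3.75, and Mybbp1a, the gene of a nucleolar Myb-binding protein, by 4.51. The genes of the ribosomal proteins themselves moved little. Of 44 tested, 4 fell (Rpl3, Rpl34, Rpl38 and Rps2) and none rose, with a median of -0.23, and 9 were lower under library totals. Rplp0 was at 976, 1927 and 1251 CPM in stage I and 1045, 1217 and 1272 CPM in stage IV, and the groups overlapped. Mitochondrial ribosomal protein genes fell in 21 of 28, with a median of -1.28 and Mrps10 at -2.68. Their share of gene counts was 0.244%, 0.395% and 0.266% in stage I and 0.0983%, 0.113% and 0.129% in stage IV. Stage I library 2 was the highest of its group in this share. It was also the highest in the shares of cytosolic ribosomal protein and oxidative phosphorylation genes. Of 42 nuclear genes for oxidative phosphorylation, 15 fell and none rose, with a median of -0.46 and a called share of 35.7%, below that of all genes tested. This count depends on the scale, since 27 were lower under library totals. Of 19 genes for RNA polymerase II and translation initiation, 12 fell and Eif4ebp1, which encodes a repressor of cap-dependent translation, rose.

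Genes of protein folding in the endoplasmic reticulum fell. Of 32 tested genes, 23 were lower and none was higher, with a median of -1.62. These genes made up 2.84% ± 0.209 of gene counts in stage I (SD, n = 3) and 0.647% ± 0.0677 in stage IV. Calr, which encodes the lectin chaperone calreticulin (chr8:84841850-84846934, minus strand), was at 3655, 3853 and 4395 CPM in stage I and 328, 358 and 188 CPM in stage IV. The groups did not overlap, and Calr fell by 3.77 ± 0.40 on the log2 scale (SE; edgeR adjusted p = 9.7e-08). Hspa5, which encodes the chaperone BiP, had 3624, 3554 and 4209 CPM and then 587, 539 and 491 CPM, a fall of 7.04-fold. Pdia6, a protein disulfide isomerase gene, fell by 3.14 on the log2 scale, and Canx, the gene of calnexin, by 2.24. Xbp1, which encodes a transcription factor of the unfolded protein response needed for eosinophil development, was not called, with 577, 579.8 and 537 CPM in stage I and 703, 722 and 390.0 CPM in stage IV. Its steady state change was -1.86, and the difference between conditions was 1.96 ± 0.32 (SE; edgeR adjusted p = 0.00093). In sterol and fatty acid synthesis 8 of 29 genes fell and 2 rose, a called share of 34.5% that is below the 44.1% of all genes tested. Fdps, the gene of farnesyl diphosphate synthase, had a log2 fold change of -2.19. In heme synthesis 5 of 10 fell and none rose, a called share of 50% that is near that of all genes tested. Alas1, the gene of the rate-limiting enzyme of heme synthesis, had 962, 849 and 1208 CPM in stage I and 761, 871 and 735 CPM in stage IV and was not called. Its difference from steady state was 2.33 ± 0.31 (SE; edgeR adjusted p = 0.0001).

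The 15 largest falls among well expressed genes were led by Ppic, which encodes a cyclophilin of the secretory pathway. Ppic had 24.6, 34.7 and 19 CPM in stage I and no count in stage IV, which with a floor of 3 counts over the group is at least 283-fold lower. Lrrn3, the gene of a leucine-rich repeat membrane protein, was at 27, 14.7 and 33.9 CPM and then 0, 0 and 0.0909 CPM, a ratio of 824-fold (exact 95% counting interval 148 to 32577). Both genes were near the limit of detection in all 3 stage IV libraries. Ablim1, the gene of an actin-binding LIM protein, was lower by a ratio of 436-fold (exact 95% counting interval 120.4 to 3606). Others in this group belong to functions described above. Polr1b encodes a subunit of RNA polymerase I and had a log2 fold change of -7.50. Derl3 encodes a derlin of the degradation machinery of the endoplasmic reticulum and had -8.49, Fkbp11 encodes a secretory pathway isomerase and had -6.59, and Fads2 encodes a fatty acid desaturase and had -7.32. Slc19a1 encodes the reduced folate carrier and went from 87, 66.8 and 79.4 CPM to 0.676, 0.804 and 0.273 CPM.

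Genes of the stem and progenitor state fell more often than they rose. Of 13 tested, 7 were lower and 2 higher, a called share of 69.2% against 44.1% of all genes tested, and the median was -2.19. Myb, which encodes a transcription factor of dividing progenitors (chr10:21124935-21160984, minus strand), was at 394, 330.5 and 429.6 CPM in stage I and 40.3, 37.4 and 31.1 CPM in stage IV. The groups did not overlap, with a log2 fold change of -3.41 ± 0.28 (SE; edgeR adjusted p = 5.1e-09). Kit, the gene of the sorted marker CD117, was at 99.9, 24.6 and 81.4 CPM and then 17.8, 6.52 and 3.27 CPM, and Cd34, a surface marker gene of progenitors, fell by 3.89. Hoxa9, a homeobox gene of early progenitors, was lower by a ratio of 293-fold (exact 95% counting interval 80.7 to 2421). Its partner gene Meis1 rose instead, from 4.32, 2.18 and 2.66 CPM to 34.3, 39.1 and 32.5 CPM, a log2 fold change of 3.52 ± 0.48. The genes of the myeloid primary granule were lower in all 5 cases. Mpo, which encodes myeloperoxidase (chr11:87793581-87804413, plus strand), was at 2669, 1730.4 and 2950.4 CPM in stage I and 218, 43.5 and 44.8 CPM in stage IV. Ms4a3, a marker gene of granulocyte and monocyte progenitors, was at 547, 926 and 683 CPM and then 82.9, 9.92 and 10.1 CPM. In both, and in Ctsg (91.3, 11.6 and 25.6 CPM in stage IV), stage IV library 1 was the highest of its group. The calls for Prtn3 and Elane, the latter chosen after its values were seen, were lost without stage IV library 2 or 3, and that for Elane also without stage I library 1.

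Transcription factors of the lineage rose more often than they fell, with 17 of 34 tested genes higher and 2 lower, and a median of 1.01. Their called share was 55.9%, against 44.1% of all genes tested. The 2 that fell were Gfi1 and Tcf4. Id2, which encodes an inhibitor of E-protein transcription factors (chr12:25093799-25097140, minus strand), was at 58, 38.9 and 26 CPM in stage I and 658, 773 and 962 CPM in stage IV, a rise of 4.28 ± 0.31 (SE; edgeR adjusted p = 8.5e-10). Spi1, which encodes the myeloid factor PU.1, was at 311, 343 and 326 CPM and then 855, 1059 and 998 CPM, and Klf13 rose by 2.20. Gfi1, which encodes a repressor needed for granulocytes, fell from 37.8, 27.1 and 36.8 CPM to 3.96, 1.7 and 5.55 CPM. Gata1 and Cebpe, which encode factors that specify eosinophils, were not called here, but both passed the test with the share of reads with no feature as covariate and with voom, and Gata1 in 3 further alternatives. Gata1 had 172, 182 and 219 CPM and then 333, 309.9 and 236 CPM, with stage IV above stage I in every library, and Cebpe had 537, 893 and 586 CPM and 834, 997 and 901 CPM, with overlap. Gata2, a related factor gene that is also a marker of basophils and mast cells, went from 189.9, 150.0 and 163 CPM to 666, 652 and 417 CPM. It rose by 1.79 ± 0.35 (SE; edgeR adjusted p = 0.00021) and fell by 2.86 on the log2 scale in steady state, and the difference was 4.65 ± 0.51 (SE; edgeR adjusted p = 5.9e-06).

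Genes of surface receptors rose over the course. Ccr3, which encodes the eotaxin receptor that directs eosinophils to tissue (chr9:124021972-124031689, plus strand), was at 6.89, 3.4 and 3.94 CPM in stage I and 1400.2, 1585 and 1646 CPM in stage IV. It rose by 8.33 ± 0.76 on the log2 scale (SE; edgeR adjusted p = 1.5e-08), or 322-fold. In the list of chemoattractant and lipid mediator receptors, 18 of 29 tested genes rose, 1 fell and the median was 2.22. The list's called share was 65.5%, against 44.1% of all genes tested. Ccr1, another chemokine receptor gene, was at 38.8, 27.2 and 26.7 CPM and then 384, 371 and 371 CPM, a narrow spread in both groups. Gpr34, a lysophosphatidylserine receptor gene, rose by 5.03, and P2ry14, the gene of a receptor for UDP-glucose, by 2.19. Hrh2, a histamine receptor gene chosen after its values were seen, fell from 1.69, 0.524 and 1.56 CPM to 0, 0.179 and 0.182 CPM, a call that was lost without stage IV library 1.

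Among cytokine receptor genes, 16 of 32 rose, 4 fell and the median was 1.24. Their called share was 62.5%, against 44.1% of all genes tested. Il1rl1, the gene of the IL-33 receptor ST2 (chr1:40429570-40465415, plus strand), was at 44.7, 38.8 and 49 CPM in stage I and 220.1, 210.3 and 311 CPM in stage IV. All 3 stage IV libraries were above stage I, with a rise of 2.48 ± 0.33 (SE; edgeR adjusted p = 2.4e-06). The steady state change was 1.26, and the difference of 1.22 ± 0.45 was not called (edgeR adjusted p = 0.15). Il5ra, the gene of the IL-5 receptor's own chain, had 181, 83.2 and 196 CPM in stage I and 79.9, 82.6 and 146 CPM in stage IV, and was not called. Csf2rb, which encodes the chain shared by the receptors for IL-5, IL-3 and GM-CSF, rose from 208, 177 and 259 CPM to 497, 639 and 534 CPM. Csf1r, the gene of the macrophage colony-stimulating factor receptor, was at 16, 6.98 and 11.9 CPM and then 488, 543 and 551 CPM, a rise of 5.50 ± 0.37. The genes that fell were Il17rb, Ifngr1, Tnfrsf1a and Il21r. Il17rb, which encodes a receptor chain for IL-25, was at 28.8, 23.4 and 48.4 CPM and then 3.67, 6.61 and 4.37 CPM, a log2 fold change of -2.77 ± 0.38. In steady state it fell by 7.48, from a higher start at 204, 213 and 170.2 CPM, and the difference was 4.70 ± 0.56 (SE; edgeR adjusted p = 1.8e-05).

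Adhesion molecules and inhibitory receptors rose as groups. Of 27 tested genes for integrins, selectins and other adhesion molecules, 18 rose and none fell, with a median of 1.58. Their called share was 66.7%, against 44.1% of all genes tested. Itgb7, the gene of the beta 7 chain of the gut-homing integrins (chr15:102215995-102231944, minus strand), was at 48.4, 40.4 and 53.9 CPM and then 1298, 1597 and 1133 CPM, a rise of 4.82 ± 0.39 (SE; edgeR adjusted p = 3e-09). Itgam, the gene of CD11b, was at 135, 27.2 and 81.6 CPM and then 1093, 1132 and 1067 CPM, tightly grouped in stage IV and spread in stage I. Its partner Itgb2 rose by 2.76 and the tetraspanin gene Cd9 by 3.15. Itgax, the gene of CD11c, stayed low, with 1.74, 1.16 and 3.64 CPM in stage IV, a ratio of 40.5-fold (exact 95% counting interval 10.8 to 341) to stage I, and its call was lost without stage I library 1 or 2 or stage IV library 3. In the list of inhibitory and paired receptors, 27 of 29 rose and Clec12a and Ceacam1 were not called. The median was 2.6, and the list's share of gene counts went from 0.515% ± 0.0419 (SD, n = 3) to 1.67% ± 0.0522. Pirb, which encodes the inhibitory receptor Pir-B (chr7:3711409-3720391, minus strand), was at 42.2, 15.2 and 23.4 CPM and then 992, 880.1 and 822 CPM, a rise of 33.3-fold. Pirb and the Pira genes are near-identical copies, so the share of each is uncertain. Pirb, Cd200r3 and Adgre1 belong to this list and also encode proteins used in the sort. Their part in the list's values is therefore not independent of the gates.

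The genes of the surface proteins used in the sort moved with the stages they define, and these values are not independent of the gates. Of 10 tested sort and depletion markers, 8 rose and 2, Cd55 and Kit, fell. Cd200r3, the gene of the sorted receptor CD200R3, was at 3.45, 4.1 and 2.66 CPM in stage I and 606, 846 and 623 CPM in stage IV, and Adgre1, which encodes F4/80, was at 98.7, 48.8 and 108 CPM and then 944, 1069 and 1019.6 CPM. Siglecf rose by 1.39 and Itgb1, which encodes CD29, by 1.21. Cd55 fell from 212, 235 and 204 CPM to 148, 151 and 114 CPM, and its call was lost without stage I library 2 or stage IV library 3. Ly6g, the gene of the antigen used to deplete neutrophils, was at 7.43, 1.75 and 0.183 CPM in stage I and 177, 107 and 78.3 CPM in stage IV. It rose by 5.24 ± 0.91 (SE; edgeR adjusted p = 5.8e-05) although cells bearing Ly6G had been removed before the sort. Thy1 and Klrb1c, the genes of the depleted antigens CD90.2 and NK1.1, had no count in stage IV.

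The largest rises among well expressed genes began from almost no counts. Fndc5, which encodes the precursor of irisin (chr4:129136999-129144593, plus strand), had no count in stage I and 26.6, 36.7 and 38.3 CPM in stage IV, at least 421-fold higher. Slc6a4, which encodes the serotonin transporter (chr11:76998603-77032340, plus strand), was at 0, 0.0873 and 0 CPM and then 102, 67 and 66.9 CPM, a ratio of 2899-fold (exact 95% counting interval 519.9 to 114562). In the reference, the steady state stage IV libraries had 3.65, 3.23 and 1.78 CPM of Fndc5 and 0.868, 0.832 and 0 CPM of Slc6a4. The test of the difference between conditions called neither gene. With 1 count or none in the stage I libraries of each condition, it cannot decide whether their changes differed. Pla2g7, which encodes the phospholipase that inactivates platelet-activating factor (chr17:43568098-43612201, plus strand), was at 3.78, 0.436 and 0.733 CPM and then 945, 1123 and 1176 CPM, a rise of 9.28 ± 0.84 (SE; edgeR adjusted p = 1.3e-08). Asb2, which encodes a specificity subunit of a ubiquitin ligase, was at 0.743, 0.698 and 0.55 CPM and then 321, 369.8 and 318 CPM. Sema7a, the gene of a membrane-anchored semaphorin, rose by 9.24 and Fgfr1, a fibroblast growth factor receptor gene, by 8.09. Cdkn2a, which encodes the cell cycle inhibitors p16 and p19ARF, was higher by a ratio of 305-fold (exact 95% counting interval 104 to 1484), with 15.6, 23 and 35 CPM in stage IV. Neb, the gene of the large muscle protein nebulin, rose by 7.85. Plxna4os1 also ranked among them, but it is an antisense transcript and the reads carry no strand, so its reads cannot be told apart from those of an overlapping gene.

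Genes of cytokines and chemokines rose more often than they fell, with a called share of 67.7% against 44.1% of all genes tested. Which cells these counts came from was not tested. Of 31 tested cytokine and chemokine genes, 18 rose and 3 fell, the median log2 fold change was 2.59, and their share of gene counts went from 0.212% ± 0.0868 (SD, n = 3) to 1.32% ± 0.0572. Ccl6, which encodes a myeloid chemokine (chr11:83587882-83593087, minus strand), was at 479, 513 and 414 CPM in stage I and 7753, 9100.0 and 8064 CPM in stage IV. It rose by 4.15 ± 0.30 (SE; edgeR adjusted p = 8e-10). Its neighbour Ccl9 rose by 6.19, from 15.5, 10.6 and 17.9 CPM to 713, 1078 and 1433 CPM. Il4, the gene of the type 2 cytokine IL-4, was already present at 29.9, 58.2 and 30.3 CPM in stage I and was at 280.2, 351 and 372 CPM in stage IV. Retnla, which encodes a resistin-like molecule of type 2 responses, rose by 6.77, and its relative Retnlg went from 68, 25.8 and 16.2 CPM to 4328, 4609.6 and 4853 CPM. Retnlg is also a neutrophil marker. The 3 genes that fell were Il15, Vegfa and Tnfsf13b, chosen after their values were seen. Il15 was at 22.9, 23.9 and 23.9 CPM and then 1.06, 0.357 and 4.55 CPM, and Vegfa, the gene of a vascular growth factor, fell by 2.69. Tnfsf13b, which encodes the B cell factor BAFF, had 7.57, 0 and 0.367 CPM in stage I and no count in stage IV, and its call rested on stage I library 1.

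Genes for lipid mediators, oxidants and degradation were mostly higher. In eicosanoid synthesis 8 of 14 rose and 3 fell, with Alox15, the 12/15-lipoxygenase gene, at 541, 351 and 525 CPM and then 2169, 2539 and 1918 CPM. Alox5ap, whose protein presents arachidonic acid to 5-lipoxygenase, rose by 2.36 ± 0.20. The 3 that fell were Lta4h, Ptgs1 and Ptges3. The call for Ptgs1 was lost without stage I library 3 or stage IV library 3, and those for Lta4h and Ptgs1 in the test against 1.5-fold. All 7 tested genes of the phagocyte NADPH oxidase rose, with a median of 1.28. Cybb, the gene of its catalytic subunit, was at 340.4, 73.7 and 208 CPM and then 1070.1, 1074 and 1143 CPM. Among antioxidant genes 12 of 23 rose and 3 fell, with Cat, the catalase gene, at 2.27. Among lysosome and autophagy genes 17 of 32 rose and 2 fell, with Ctsd, the cathepsin D gene, at 468, 479 and 546 CPM and then 3563, 4078 and 3359.6 CPM. In granule exocytosis 12 of 19 rose and 1, Rab27b, fell. The called shares of the antioxidant, lysosome and exocytosis lists were 65.2%, 59.4% and 68.4%, against 44.1% of all genes tested.

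In the lists of signalling and defence genes more members rose than fell. Of 30 interferon-stimulated genes 17 rose and none fell, with a median of 2.41, or 2.17 when genes at the counting floor were set to their bound. Irf7, which encodes a master regulator of interferon genes, was at 2.43, 0.873 and 2.2 CPM in stage I and 49.6, 60.2 and 37.9 CPM in stage IV, and Isg15 rose by 3.98. In antigen presentation 11 of 19 rose and none fell, with B2m, the gene of the class I light chain, at 1.49. Among immediate early genes 7 of 23 rose and 1 fell, a called share of 34.8% that is below the 44.1% of all genes tested. Junb, an AP-1 subunit gene, was at 339, 285 and 320.0 CPM and then 2943, 2715 and 3279 CPM, a rise of 3.24 ± 0.48. Dusp1, the gene of a phosphatase that switches off MAP kinases, had 2440.1, 2339 and 2725 CPM and then 5505, 5886 and 5261 CPM without overlap, yet was not called (edgeR adjusted p = 0.062), although it passed in 5 alternatives. Of 24 genes of the Bcl2 family and its partners 11 rose and none fell, a called share of 45.8% that is near that of all genes tested, and 6 rose without both IL-33 libraries numbered 1. The survival gene Mcl1 had a log2 fold change of 2.29. Of 12 STAT5 targets 8 rose and none fell, and of 21 genes of the NF-kB pathway 11 rose and 1 fell. Under library totals 9 NF-kB genes were higher and 1 lower. Called shares were 56.7% for interferon-stimulated genes, 57.9% for antigen presentation, 66.7% for STAT5 targets and 57.1% for NF-kB. The share over all genes tested was 44.1%. Jak2, the gene of the kinase that signals for the IL-5 receptor, was at 81.5, 40.9 and 54.3 CPM and then 275, 314 and 288 CPM. Its steady state change was 0.53 and the difference 1.78 ± 0.39 (SE; edgeR adjusted p = 0.01).

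**Figure D2:**
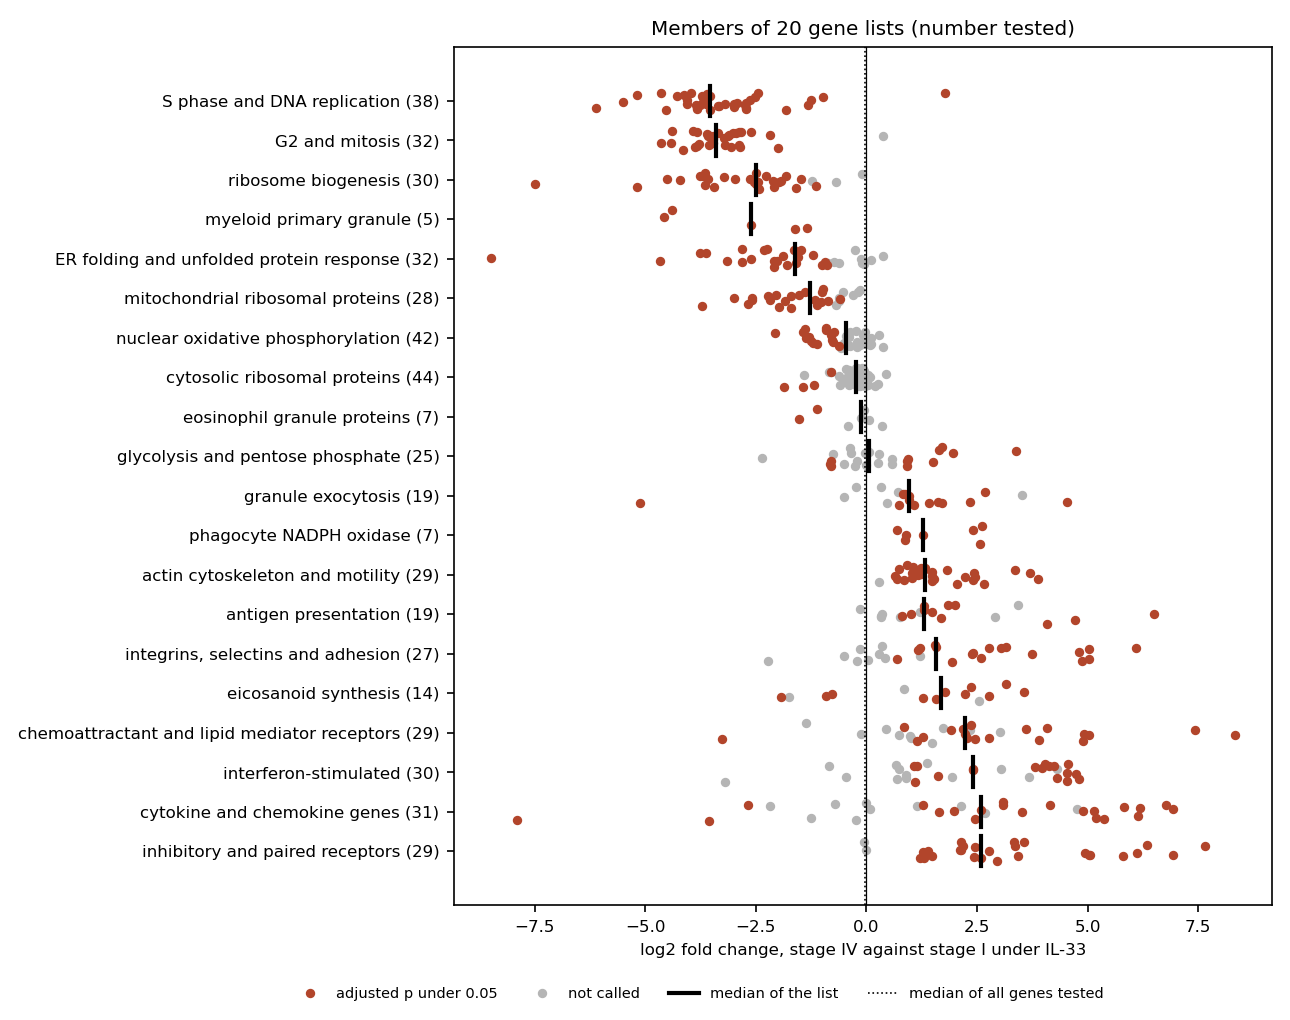
Log2 fold change of stage IV against stage I under IL-33 for the tested members of 20 gene lists, with 1 point for each gene, called genes coloured (edgeR adjusted p under 0.05), a bar at each list's median and a dotted line at the median of all genes tested. The medians run from -3.54 for S phase to 2.6 for the inhibitory and paired receptors, and the point far to the right in the S phase row is E2f2.

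Genes of the actin cytoskeleton and motility rose in 28 of 29 tested, and Dock8 was not called. The median was 1.33, and the list made up 1.72% ± 0.0466 of gene counts in stage I (SD, n = 3) and 3.71% ± 0.159 in stage IV. Actb was at 1512, 2215 and 2556 CPM and then 5259, 6261 and 6537 CPM. Gsn, which encodes the filament-severing protein gelsolin, was at 162, 61.2 and 144 CPM and then 1904, 2095 and 1415 CPM, a rise of 3.88 ± 0.34 (SE; edgeR adjusted p = 7.5e-09). Capg, the gene of a related capping protein, rose by 3.70. Genes of the nuclear lamina and envelope were split, with 6 of 13 higher and 4 lower, the latter being Lmnb2, Tmpo, Banf1 and Nup210. Under library totals 3 were higher and 4 lower. Tmpo, which encodes lamina-associated polypeptide 2 (chr10:91147571-91181315, minus strand), was at 411, 228 and 259 CPM in stage I and 70.5, 63.6 and 78.8 CPM in stage IV, a log2 fold change of -2.08 ± 0.27. In steady state Tmpo had 196, 204 and 232 CPM at the start and 264, 222 and 242 CPM at the end, and the difference between conditions was -2.28 ± 0.37 (SE; edgeR adjusted p = 0.00083).

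The net change in steady state had a similar number of calls, with 5587 genes (43.8% of those tested), 2692 higher and 2895 lower. The 416 genes whose change differed between the conditions had a higher value under IL-33 in 263 cases (2.06% of those tested) and a lower one in 153 (1.2%). This count depended on single libraries. It was 215 without stage I IL-33 library 2, 277 without stage IV IL-33 library 2, 268 without steady state stage I library 2 and 262 without both IL-33 libraries numbered 1. Among the largest differences by the rule for named genes was Cdh1, which encodes the adhesion molecule E-cadherin (chr8:106603351-106670246, plus strand). Cdh1 was at 7.23, 3.93 and 8.16 CPM in stage I and 64, 59.4 and 51 CPM in stage IV when IL-33 was given, and in steady state at 45, 65.9 and 48.5 CPM and 0.0868, 0 and 0.411 CPM. It rose under IL-33 and fell in steady state, and the difference was 11.63 ± 1.14 on the log2 scale (SE; edgeR adjusted p = 1.3e-06). Npl, which encodes a lyase that breaks down sialic acid (chr1:153503015-153550045, minus strand), was at 11.1, 15 and 14.2 CPM and then 450.2, 405 and 354 CPM under IL-33, and at 11.1, 19.2 and 12.9 CPM and then 5.82, 1.57 and 3.57 CPM in steady state. The IL-33 stage IV libraries stood far above the other 3 groups, with a difference of 6.88 ± 0.66 (SE; edgeR adjusted p = 8.8e-07). Ecm1, the gene of a secreted matrix protein, differed by 6.60, with stage IV levels of 64.1, 121 and 77.1 CPM under IL-33 and 1.04, 3.51 and 0.411 CPM in steady state. Lypd6 differed by 6.41, but its own net rise under IL-33 was lost when any 1 of the 6 libraries was left out. Tmem215, Hook1 and Cdh17 had no count in steady state stage IV, so their fitted differences depend on the prior count of the fit. Cdh17 also had only 5 counts in steady state stage I, and its steady state change was not called. The differences for Hook1 and Cdh17 lost their call in several leave-one-out fits, including those without stage I or stage IV IL-33 library 2.

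Differences in the other direction were smaller in number. Adam19, which encodes a membrane metalloprotease, rose in both conditions. It was at 5.54, 7.24 and 4.22 CPM and then 457.98, 343 and 358 CPM under IL-33, a log2 fold change of 6.09 ± 0.44. In steady state it had 3 counts in all stage I libraries together and 287, 364 and 349 CPM in stage IV, so the stage IV levels were of the same order in both conditions and the stage I levels differed. Nrp1, which encodes the receptor neuropilin-1 (chr8:128358604-128503363, plus strand), was at 89.7, 83.6 and 42.6 CPM and then 2.7, 3.13 and 6.64 CPM under IL-33, and at 5.16, 3.84 and 0.674 CPM and then 5.56, 6.28 and 7.27 CPM in steady state. Its log2 fold change was -4.11 under IL-33 and 0.99 in steady state, and the difference was -5.10 ± 0.92 (SE; edgeR adjusted p = 0.0025). Mrm3, the gene of a mitochondrial ribosomal RNA methyltransferase, differed by -3.45 and Mrps6, a mitochondrial ribosomal protein gene, by -3.13. The call for Mrps6 was lost without stage I IL-33 library 2. The calls for C3ar1 and Fancm were lost in most leave-one-out fits, and in 11 and 15 alternatives in all. Those for Ppic and Bcl2a1b were lost in some leave-one-out fits. Cell cycle genes fell in both conditions, and 4 of 38 tested in the S phase list and 4 of 32 in the G2 and mitosis list differed between them, each with the lower value under IL-33. The call of the difference was lost for Mcm3 in 6 of the 12 leave-one-out fits, for Birc5 without steady state or IL-33 stage I library 2, and for Prim1 without both IL-33 libraries numbered 1. Mki67 was at 172, 136 and 219 CPM and then 55.3, 80.6 and 117 CPM in steady state, and its difference was -1.84 ± 0.40 (SE; edgeR adjusted p = 0.01).

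**Figure D3:**
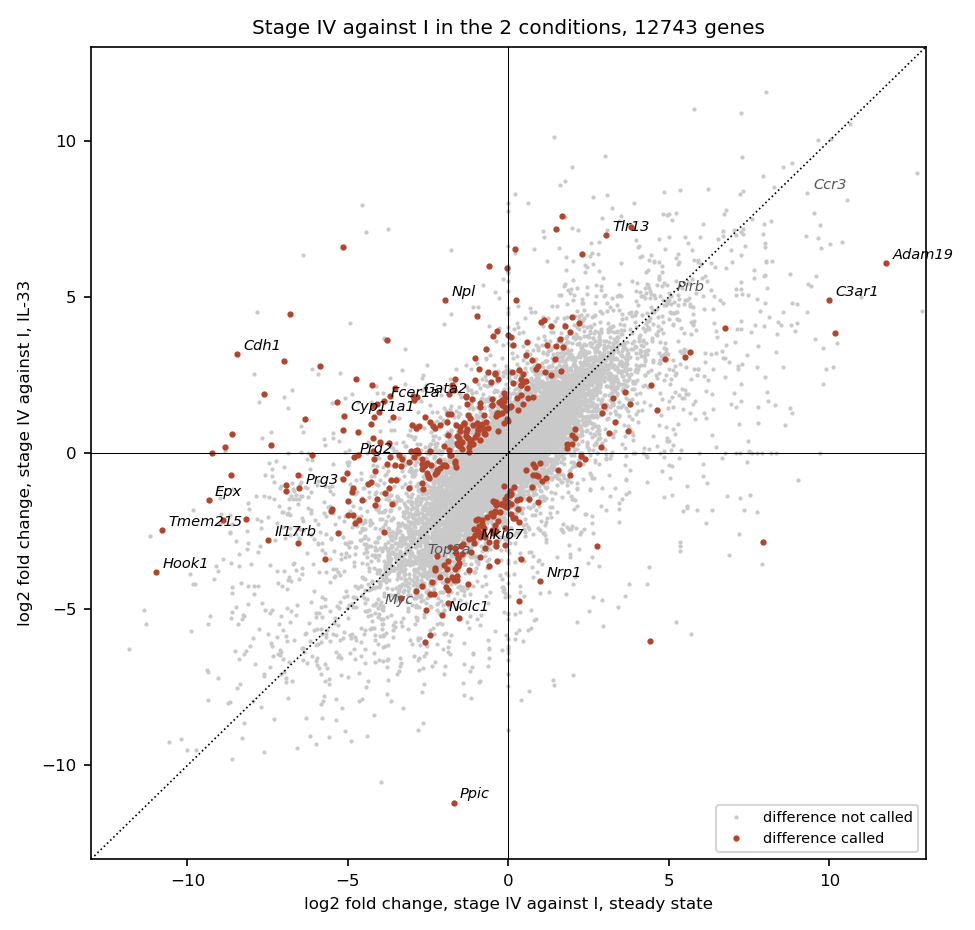
Log2 fold change of stage IV against stage I in steady state (horizontal axis) and under IL-33 (vertical axis), with 1 point for each of the 12743 genes tested and the 416 genes whose change differed between conditions marked. Epx, Cdh1, Npl and Gata2 lie far above the diagonal, and Adam19 and Nrp1 below it.

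Several genes known from basophils and mast cells changed differently in the 2 conditions. Of 11 tested, 6 were called in the test of the difference, against 3.26% of all genes tested. In each of the 6 the log2 change from stage I to IV was higher under IL-33. In the net comparison under IL-33, 3 rose, 1 fell and 7 were not called, a called share of 36.4% against 44.1% of all genes tested. Fcer1a, which encodes the alpha chain of the high-affinity IgE receptor (chr1:173221284-173227214, minus strand), was at 66.1, 60.3 and 53.7 CPM in stage I and 225, 208 and 138 CPM in stage IV. Its steady state levels were 157, 337 and 264 CPM and then 22.8, 6.19 and 22.6 CPM. It rose by 1.66 ± 0.38 under IL-33 and fell in steady state, a difference of 5.54 ± 0.57 (SE; edgeR adjusted p = 1.9e-06). Cyp11a1, which encodes the enzyme that starts steroid synthesis from cholesterol, was at 442.3, 457.7 and 499 CPM and then 1251, 1198 and 768 CPM under IL-33 and at 39.3, 54.7 and 50.8 CPM and then 1.48, 0.832 and 1.92 CPM in steady state. Its rise under IL-33 was lost in 5 of the 6 leave-one-out fits, whereas the difference of 6.32 ± 0.71 remained called in all alternatives (edgeR adjusted p = 9.1e-06). Hdc, the gene of the enzyme that makes histamine, had 1066, 825 and 1401 CPM and then 922, 936 and 601 CPM under IL-33, with a net change that was not called and a difference of 2.92. Cpa3, the gene of a mast cell carboxypeptidase chosen after its values were seen, had stage IV levels of 376, 794 and 493 CPM under IL-33 and 44.5, 19.2 and 41 CPM in steady state. Mcpt8, the gene of a basophil protease, went the other way under IL-33, from 157, 339 and 257 CPM to 28.4, 53.2 and 36.5 CPM, a call lost without stage IV library 1 or 3. The mast cell genes Tpsab1, Tpsb2, Mcpt4 and Mrgprb1 had no count in either IL-33 group. All 15 listed genes together made up 0.51% to 0.631% of gene counts in stage I and 0.42% to 0.542% in stage IV. Their part in the results was not tested.

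Markers of other cells gave the following levels. Neutrophil markers made up 1.02%, 0.29% and 0.237% of gene counts in the stage I libraries and 1.19%, 0.679% and 0.745% in those of stage IV, with library 1 the highest of each group, and an exact permutation test of the share gave p = 0.3. Of 18 tested, 5 rose and none fell, among them Mmp9 (34.1, 0.611 and 1.19 CPM and then 488, 462 and 431 CPM) and Padi4 (3.57). This called share of 27.8% was below the 44.1% of all genes tested. Without stage IV library 1, 5 rose and 5 fell. Of 18 monocyte and macrophage markers 8 rose, among them Csf1r, Cd68 and Ly6c2, and 1 fell. This called share of 50% was near that of all genes tested. Together these markers made up 0.194% to 0.324% of gene counts in stage I and 0.336% to 0.405% in stage IV. The B cell genes Ms4a1 and Cd22, the T and NK cell genes Cd3e, Cd4, Cd8a and Ncr1 and the 4 globin genes listed had no count in either group. The T, NK and innate lymphoid cell markers together made up 0.0958% ± 0.0199 of gene counts in stage I (SD, n = 3) and 0.0181% ± 0.00283 in stage IV, with all 3 stage IV libraries below stage I. Most of these counts came from Nkg7, the gene of a cytotoxic granule protein, which went from 677, 1179.8 and 913 CPM to 188, 239.6 and 157 CPM and fell by 2.24 on the log2 scale (edgeR adjusted p = 0.00011). Of 5 T, NK and innate lymphoid markers tested, Cd3d and Cd3g rose and Nkg7 fell. This called share was 60%, against 44.1% of all genes tested. Cd3g had no count in stage I and 49 counts in stage IV. Its call was lost without stage I library 1, 2 or 3 or stage IV library 3. Cd3d and Cd79a rose to no more than 15.5 and 11.4 CPM in any stage IV library, and the call for Cd79a was lost without stage I library 2 or 3. Of 9 erythroid genes 4 fell, a called share of 44.4% that is near that of all genes tested. Among them was Tfrc, which encodes the transferrin receptor that dividing cells also use. Tfrc was at 92.7, 65.3 and 85 CPM and then 0.966, 2.14 and 4.37 CPM. The part of such cells in the results was not tested.

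**Figure D4:**
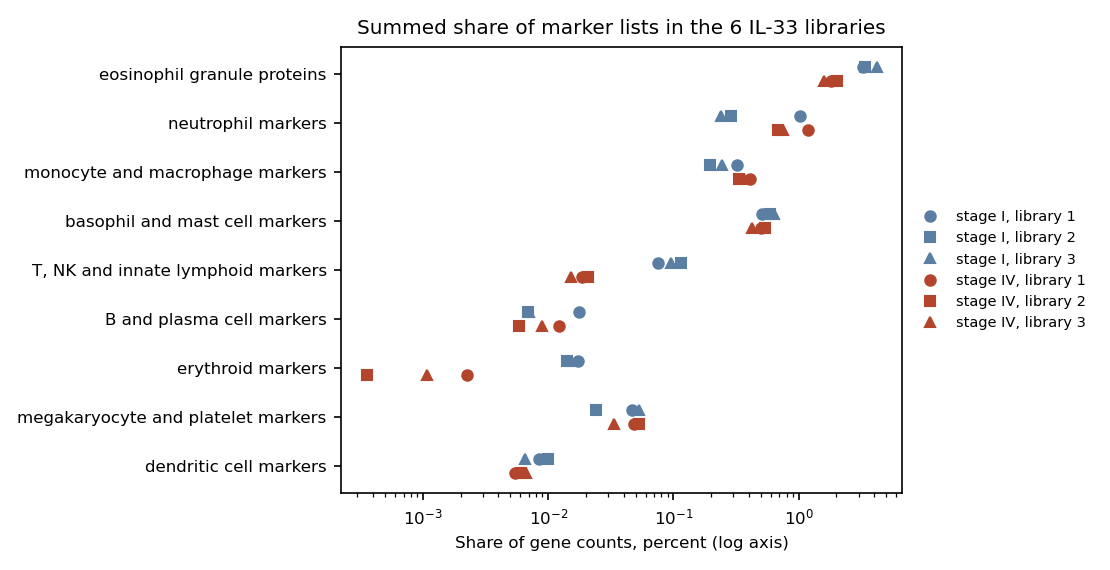
Summed share of gene counts, in percent on a log axis, of the eosinophil granule genes and of 8 marker lists of other cells, with 1 point for each of the 6 libraries (colour for the stage, shape for the library). Neutrophil markers reach 1.19% in stage IV library 1 and 1.02% in stage I library 1, above the other libraries of each group.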

How the data were processed

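The authors deposited, for each of the 24 libraries, whole-number read counts per gene symbol, which were used as raw counts. The submitters' processing notes name STAR 2.6.1a, mm10 and DESeq2. Which tool counted the reads, with what annotation and strand setting, is not given in the sources used here. The 2 rows that name no gene, for reads with no feature and for ambiguous reads (2.05% to 2.6% of reads in the 6 libraries), stayed out of library sizes and tests. Gene counts ran from 8335138 to 14909453 over the 24 libraries. Replicates differed by far more than counting noise (chi-square per degree of freedom 24.1 to 121 among the 6 libraries), so none was a copy of another.

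Counts were filtered with edgeR's filter by group, scaled by TMM and fitted with edgeR 4.0.16 in R 4.3.3, in 1 quasi-likelihood fit of all 8 groups and 24 libraries. Contrasts of that fit gave stage IV against I under IL-33, the same in steady state, and the difference of both. P-values were adjusted by Benjamini and Hochberg over the 12743 genes tested. The standard error (SE) is the log2 fold change over the square root of F. Shares of gene counts were compared by a two-sided exact permutation test, whose smallest p is 0.1. For a group at 0, a floor of 3 counts over its libraries was used, and groups with 1 to 3 counts have a ratio with its exact 95% interval, which covers counting error only. Data were also simulated for the 12743 genes. In them, 100 genes changed 2-fold and 100 changed 4-fold in IL-33 stage IV, and all others were equal between groups. There the test of stage IV against I recovered 18% of 2-fold and 75% of 4-fold changes with 2 false calls. The test of the difference recovered 7% and 47% with 1 false call. In the real data 44.1% of genes were called, far more than changed in the simulation. These figures therefore do not give the recovery or false calls of the comparison described here.

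Alternatives were size factors of DESeq2 type, library totals, no filter, a stricter filter, a replicate block, the share of reads with no feature as covariate, a test against 1.5-fold, fits of fewer libraries, leaving out each library, DESeq2 1.42.0 and voom of limma 3.58.1. The comparison, the 44 gene lists and the alternatives were chosen with earlier results of these data known. Genes named are the 15 largest rises and falls and the 8 largest differences each way among called genes with a group mean of at least 20 CPM (those rises and falls also without overlap), up to 4 called and 2 uncalled members of each list, a panel of eosinophil genes and the 6 most abundant genes of each stage. Predicted genes and clone names were passed over. Values of a few such genes are not reported here. Named outside this rule, after their values were seen, were E2f2, Ear2, Elane, Hrh2, Il15, Vegfa, Tnfsf13b, Cpa3, Bcl2, Ptger3, Cd33 and the other list members given only by their direction. Positions come from GENCODE M21 on GRCm38 and promoters from RefSeq on GRCm38.p6, both matched by symbol.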

Additional observations from a re-analysis of the deposited data

Results flagged for a closer look

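The stage IV against I change under IL-33 differed from that in steady state, by a test of the difference itself, for 416 genes. The named genes with the largest such differences on the log2 scale, IL-33 minus steady state, were Cdh1 at 11.63, Tmem215 at 8.31, Epx at 7.83, Cdh17 at 7.41, Hook1 at 7.17, Npl at 6.88, Ecm1 at 6.60 and Lypd6 at 6.41. In the other direction they were Ppic at -9.48, Adam19 at -5.68, Nrp1 at -5.10, C3ar1 at -5.09, Mrm3 at -3.45, Fancm at -3.40, Bcl2a1b at -3.25 and Mrps6 at -3.13. For Ppic, Tmem215, Cdh17 and Hook1 a group with no counts enters the fit, so these 4 values depend on the prior count. Other differences rest on nearly empty groups, so their size is uncertain too. Cdh1 had 4 counts in steady state stage IV, and in steady state stage I Adam19 had 3 and C3ar1 had 4. Cdh17 had only 5 counts in steady state stage I, besides none in steady state stage IV. Bcl2a1b is 1 of several near-identical copies, and its value is uncertain. The calls for C3ar1, Fancm and Hook1 were lost in most leave-one-out fits, and those for Ppic, Cdh17, Bcl2a1b and Mrps6 in some.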

How the results depend on the processing

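Between 4260 and 8341 genes were called for stage IV against I under IL-33 in the alternatives tried, and all counts lay within 1.5 times that of 5616. Leaving out 1 library gave 4786 to 4954. The count of 416 genes whose change differed between conditions was 785 with a replicate block, 205 in the test against 1.5-fold, 262 without both IL-33 libraries numbered 1 (a choice made after seeing the data), 855 with DESeq2 and 1059 with voom. Leaving out 1 library gave 215 to 474, the lowest without stage I IL-33 library 2. Without the 4 steady state libraries numbered 3 it was 547. The block raised the first count to 6122. Same-numbered stage I and IV libraries had deviations correlated at 0.112, 0.0225 and 0.0392, and not every library was closest to its own number, so the numbers were not taken to pair the samples.

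Of 162 named genes called for the IL-33 change, 144 stayed called in every alternative, 18 lost the call in some, and 0 changed direction. A further 11 that were not called passed in some alternatives, among them Alas1, Cebpe, Dusp1, Eef1a1, Gata1, Hdc, Il5ra, Lmnb1, Ms4a2 and Runx1. Of 56 called for the difference, 33 stayed called in all and 23 did not, and 2 uncalled ones, Cd200r3 and Ly6g, passed in some. Uncalled log2 fold changes near 0 changed sign. With library totals Ear1 was at -0.21, Xbp1 at -0.17, Eef1a1 at -0.058 and Cox4i1 at -0.16. Without both libraries numbered 1, Ear1 was at -0.035, Xbp1 at -0.0092 and Cox4i1 at -0.12. Ear1 was at -0.011 in the 12 IL-33 libraries alone, and Cpa3 at 0.0086 with the share of reads with no feature as covariate. Leaving out 1 library gave -0.11 to 0.20 for Ear1, -0.23 to 0.078 for Ear6, -0.053 to 0.33 for Xbp1, -0.44 to 0.075 for Rplp0, -0.15 to 0.46 for Cox4i1, -0.25 to 0.0062 for Herpud1 and -0.56 to 0.012 for Cpa3. It gave -0.00332 to 0.00205 percentage points for the change in the share of B and plasma cell markers and -0.00474 to 0.00947 for megakaryocyte markers. Where a call or sign changed, the cause was not tested.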

Other observations

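Values of some further genes follow, most of them members of lists described above. Tlr13, which encodes a receptor for bacterial ribosomal RNA, had 1.15, 0 and 1.28 CPM in IL-33 stage I and 147, 82.6 and 84.2 CPM in IL-33 stage IV, a log2 fold change of 6.97 ± 0.89 (SE; edgeR adjusted p = 1.3e-06). Of 15 tested genes for Toll-like and other pattern receptors 5 rose and none fell, a called share of 33.3% against 44.1% of all genes tested. Bcl2, a survival gene, had 34.8, 31.5 and 28.6 CPM in IL-33 stage I and 31.1, 28 and 28.5 CPM in IL-33 stage IV, with overlap, and 50.7, 51.8 and 42.4 CPM and 3.65, 1.2 and 6.58 CPM in steady state. Its log2 difference between conditions was 3.57 ± 0.63 (SE; edgeR adjusted p = 0.0022). Pim2, the gene of a survival kinase, rose from 49.9, 56.5 and 47.8 CPM to 231, 212 and 136 CPM under IL-33 and had 17.9, 11 and 19.4 CPM and 17.9, 14 and 11.5 CPM in steady state. Itga2b, the gene of the platelet integrin chain CD41, had 409.9, 232 and 484 CPM and 509, 595 and 332 CPM under IL-33, and 621, 622 and 461 CPM and 36.2, 32.7 and 37.6 CPM in steady state, a log2 difference of 4.35 ± 0.39 (SE; edgeR adjusted p = 5.3e-07). The platelet gene Vwf had no count in either IL-33 group. Bcl2 was chosen after its values were seen.

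Ptger3, the gene of a prostaglandin E2 receptor and also chosen after its values were seen, had 3.99, 1.57 and 3.58 CPM in IL-33 stage I and 22.6, 15.3 and 9.55 CPM in IL-33 stage IV. In steady state it had 6.65, 1.62 and 7.79 CPM and then 0.521, 0 and 0 CPM. The log2 difference was 7.12 ± 1.32 (SE; edgeR adjusted p = 0.0034), and the net rise under IL-33 alone was lost when any 1 of stage I libraries 1 to 3 or stage IV libraries 1 and 2 was left out. Cd33, the gene of an inhibitory sialic acid receptor and likewise chosen after its values were seen, had 15.6, 1.31 and 2.93 CPM and then 76.7, 65.4 and 61.1 CPM under IL-33, and 21.8, 25.3 and 43.9 CPM and then 24.1, 9.05 and 23.5 CPM in steady state, with a log2 difference of 4.02 ± 0.83. Ly6c2, the gene of a surface antigen of myeloid cells, had 677, 771 and 695 CPM and then 2351, 2449.6 and 2110.2 CPM under IL-33, and 509, 443.3 and 372 CPM and then 421, 292 and 444.1 CPM in steady state, with a log2 difference of 1.88 ± 0.29 (SE; edgeR adjusted p = 0.00047).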
